A study of Mus musculus with 6 samples.

Results

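A set of 38 genes that mark leukocytes was followed through RNA sequencing libraries of sorted alveolar type II (AT2) cells, the surfactant-producing epithelial cells of the lung alveolus. The genes were chosen by name, as rows of the deposited count table whose symbol is on a fixed list of macrophage, granulocyte, T, B and NK cell genes. All 38 were found among the 24421 genes of the table, and 37 of them were among the 16723 genes that passed the expression filter. The rule used symbols alone and no measured value, although the list was written with earlier results of these libraries known.

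The libraries came from adult mice in which *Sftpc-CreERT2*, a tamoxifen-inducible recombinase driven from the locus of an AT2 gene, switched on the red reporter R26-tdTomato, and AT2 cells were sorted by FACS for that label. The 3 Control mice had the genotype Sftpc-CreERT2/+ with R26-tdTomato/+, and the 3 caBmpr1a mice carried R26-caBmpr1a, which encodes a constitutively active BMP receptor, opposite R26-tdTomato. Mice of 12 weeks were used except for Control replicate 2 and caBmpr1a replicate 1, which were 16 weeks old. The reporter and the receptor alleles recombine separately, so a sorted cell need not have activated the receptor, and no antibody against a leukocyte antigen is named in the methods of the sort.

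Leukocytes share a set of surface, signalling and cytoskeletal proteins, such as the phosphatase CD45 encoded by *Ptprc*, that epithelial cells are not known to make in quantity. The lung holds resident alveolar macrophages, which lie in the airspace beside AT2 cells, and interstitial macrophages, monocytes, neutrophils and lymphocytes of the tissue and its vessels. The level of their genes in a sorted epithelial sample is therefore used as a measure of its purity. In bulk RNA, fewer cells of a type and less RNA per cell cannot be told apart.

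The libraries held from 21554249 to 28440227 counts, so that 3 counts in a library corresponded to between 0.0976 and 0.138 CPM. CPM here is counts scaled to a common library total after TMM scaling, which sets each gene against the bulk of the other genes in a library. A list of 10 AT2 genes took from 10.97% to 13.5% of all counts in each library. Control replicate 1 and caBmpr1a replicate 3 had 176 and 146 CPM on Y-linked genes and the other 4 libraries had 0. These 4 are called Y-negative here and the remaining pair Y-positive, and values within each set are given beside the pooled ones. Nothing in the labels beyond separate titles and ages shows how the replicates were raised or processed, and p-values measure the spread between these libraries only.

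All 38 leukocyte genes had counts in every library, but their sum was small. Together they took 0.0229% of the counts (95% exact binomial interval 0.0223 to 0.0235) in Control replicate 1. The share was 0.0257% (0.0251 to 0.0264) in Control replicate 2 and 0.0258% (0.0252 to 0.0264) in Control replicate 3. In the caBmpr1a libraries it was 0.0542% (0.0532 to 0.0552) in replicate 1, 0.0321% (0.0314 to 0.0329) in replicate 2 and 0.0188% (0.0183 to 0.0193) in replicate 3. The highest and the lowest of the 6 libraries were thus both caBmpr1a libraries, with the Control libraries between them. A large part of the sum came from *Cd14*, *Cd68* and *Cd79b*, none of which was highest in caBmpr1a replicate 1. They held 1206, 605 and 514 of the 5242 counts in Control replicate 1. In caBmpr1a replicate 1 they held 1221, 519 and 447 of 11681. The sum is therefore not a plain measure of leukocyte content. These intervals cover counting error only, and mates of a read pair appear to have been counted singly, so they are narrower than independent fragments would give.

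On a scale that corrects for gene length, TPM, the summed level of the 38 genes was from 0.118% to 0.349% of the summed TPM of the 10 AT2 genes. The extremes were again caBmpr1a replicate 3 and replicate 1. *Ptprc* stood at between 0.0102% and 0.0748% of the CPM of *Sftpc*, the surfactant protein gene that drives the recombinase. That ratio is a comparison of CPM within a library and not a cell fraction, because the RNA content per cell of either type was not measured. It is also not corrected for gene length. In TPM, *Ptprc* had 2.12 and *Sftpc* 146503 in Control replicate 1, and 12.95 and 122162 in caBmpr1a replicate 1.

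Mean TPM over the 6 libraries ran from 0.336 for *Fcgr1*, an Fc receptor of macrophages and monocytes, to 73.0 for *Cd14*, the co-receptor for lipopolysaccharide. The median of the 38 genes was 4.06 TPM, with 4 genes under 1 and 9 genes over 10. The 4 highest were *Cd14*, *Chil3* at 46.2, *Cd68* at 37.5 and *Cd79b* at 33.0 TPM, genes of 3 different lineages. *Chil3* encodes a secreted chitinase-like protein of alveolar macrophages, *Cd68* a lysosomal glycoprotein and *Cd79b* a chain of the B cell receptor complex. The ranges of these 4 genes over the 6 libraries overlapped, except those of *Cd14* and *Cd79b*, so neighbours in this order did not differ beyond the spread between libraries.

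**Figure D1:**
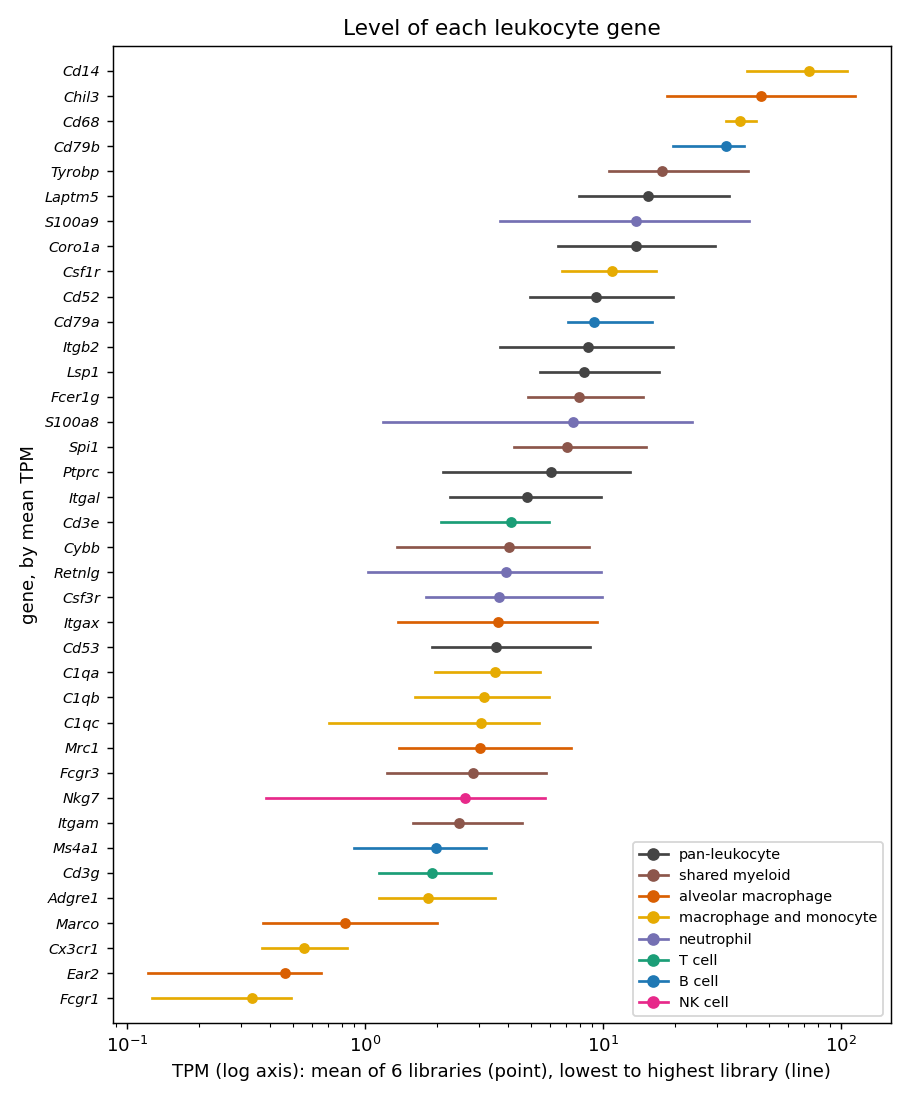
Level of each leukocyte gene in TPM on a log axis, with the mean of 6 libraries as a point and the lowest to the highest library as a line, coloured by lineage. Means run from 0.336 TPM for Fcgr1 to 73.0 TPM for Cd14, and the lines of neighbouring genes overlap.

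Genes of the same lineage lay far apart on this scale. The B cell genes *Cd79b* and *Cd79a*, which encode the 2 chains of 1 heterodimer, had mean levels of 33.0 and 9.19 TPM, and *Ms4a1*, the gene of the B cell antigen CD20, had 1.99 TPM. In every library *Cd79b* was above *Cd79a* in TPM. For the macrophage and monocyte group the means went from 0.336 TPM for *Fcgr1* and 0.555 TPM for *Cx3cr1*, a chemokine receptor of monocytes, up to 10.9 TPM for *Csf1r*, the receptor for macrophage colony-stimulating factor, and to *Cd68* and *Cd14* above it. The pan-leukocyte genes were closer together, between 3.57 TPM for the tetraspanin gene *Cd53* and 15.4 TPM for the lysosomal membrane gene *Laptm5*.

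caBmpr1a replicate 1 held the highest CPM of 32 of the 37 tested leukocyte genes. For all tested genes that share was 8.66%, against 86.5% of the leukocyte genes. *Cd68* and *Cd79b* were highest in Control replicate 1, as was *Fcgr1*, *Cd14* was highest in Control replicate 2 and *Cd3e* in caBmpr1a replicate 3. None of the 37 had its lowest value in caBmpr1a replicate 1, against 9.13% of all tested genes, while 18 (48.6%, against 26.8% of all tested genes) had it in caBmpr1a replicate 3. The median ratio of caBmpr1a replicate 1 to the mean of the other 5 libraries was 2.51 over the 37 genes (range 1.02 to 5.46) and 0.985 over all tested genes. That ratio exceeded 2 for 25 of the 37 (67.6%), compared with 2.06% of all tested genes.

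**Figure D2:**
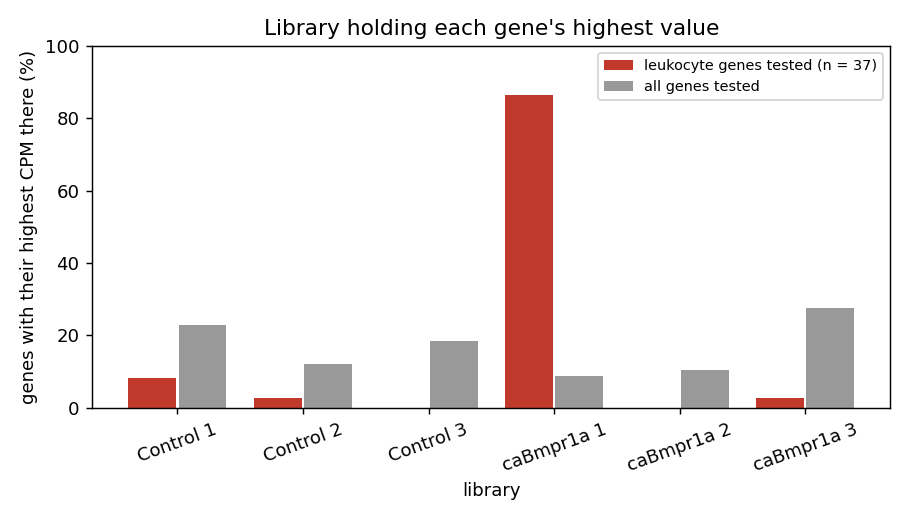
Share of genes, in percent, whose highest CPM lies in each of the 6 libraries, for the 37 tested leukocyte genes (red bars) and for all tested genes (grey bars). caBmpr1a replicate 1 holds the highest value of 86.5% of the leukocyte genes and of 8.66% of all genes.

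The next library was also of the caBmpr1a group. caBmpr1a replicates 1 and 2 were the 2 highest libraries for 19 of the 37 genes, or 51.4%, against 5.06% of all tested genes. With caBmpr1a replicate 1 set aside, 19 of the 37 were highest in replicate 2, against 12.8% of all tested genes. The 2 Y-positive libraries were the 2 lowest for 13 of the 37 (35.1%, against 15.8% of all tested genes). The heat map of the 38 genes shows this as a warm column for caBmpr1a replicate 1 and mostly cool shades in caBmpr1a replicate 3.

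**Figure D3:**
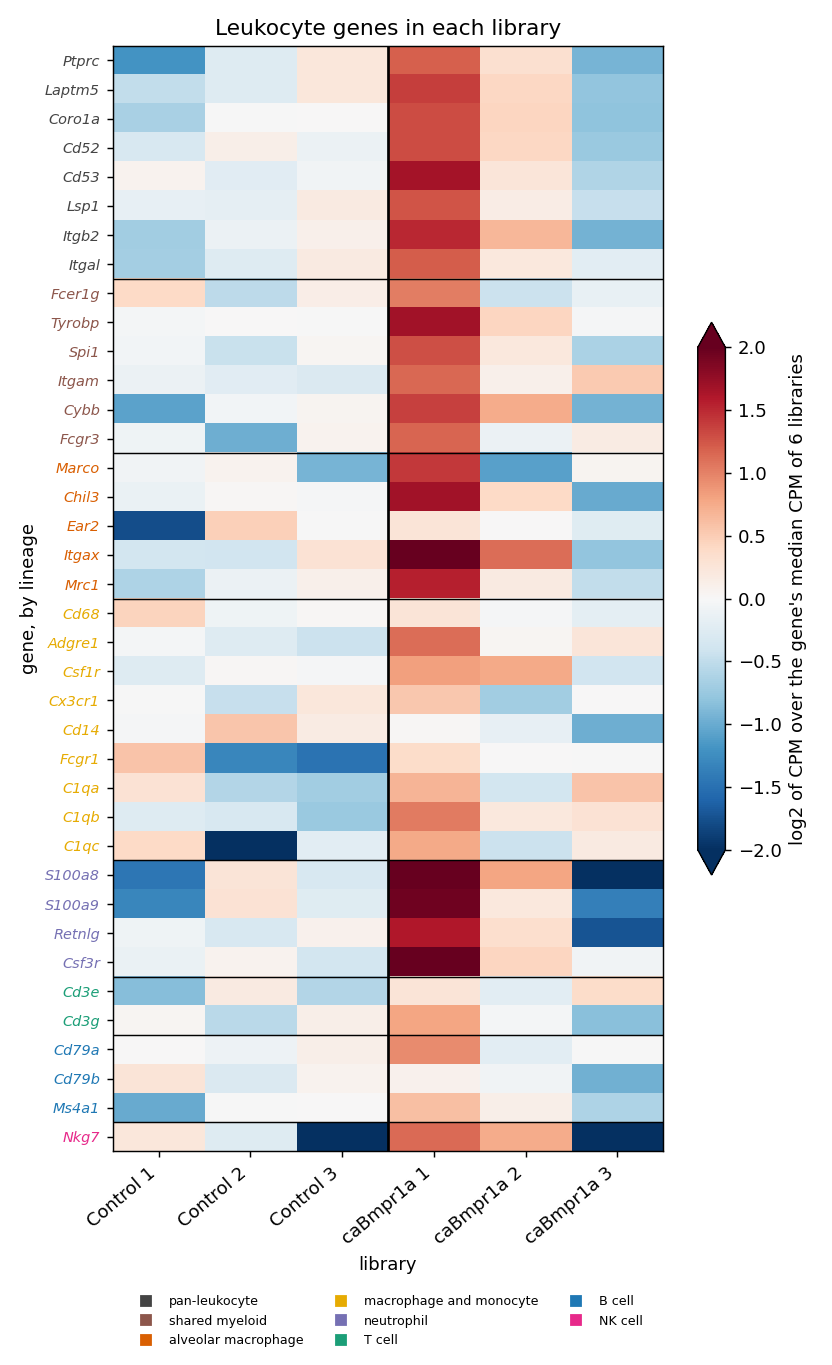
CPM of each leukocyte gene in each of the 6 libraries, as log2 of its ratio to that gene's median of 6 libraries, with genes grouped by lineage and colours cut at an absolute log2 of 2. The column of caBmpr1a replicate 1 is the highest for 32 genes, and caBmpr1a replicate 3 is the lowest for 18 genes, where it is the lowest for 26.8% of all tested genes.

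Between the groups, no leukocyte gene passed an adjusted p of 0.05 with a fold change over 2 in edgeR's quasi-likelihood test. The count was 0 of 37, where 0.239% of all tested genes (40 of 16723) were called, 38 of them higher and 2 lower in caBmpr1a. DESeq2 called 0 of the 38 genes, against 0.647% of all genes, and limma-voom called 0 of the 37, against 0.155%. DESeq2 gave no adjusted p for *Ear2*, *Marco*, *Cx3cr1*, *Fcgr1*, *C1qc*, *S100a8*, *Retnlg*, *Cd3g* and *Nkg7*, which it therefore could not call. At an unadjusted p under 0.05, DESeq2 had 5 higher (13.2%, against 4.44% of all genes) and 1 lower (2.63%, against 3.2%), and limma-voom had 1 higher (2.7%, against 4.78%) and 1 lower (2.7%, against 5.35%). The adjusted p-values of the 37 genes lay between 0.418 and 0.971 in edgeR's test with Benjamini-Hochberg adjustment. At an unadjusted p under 0.05 in edgeR's test, 2 genes were higher (5.41%, against 4.62% of all tested genes) and 0 were lower (against 5.05%). The higher share was close to that of all genes, and the lower share was below it. With 3 libraries a group, the smallest exact two-sided permutation p for a single gene is 0.1.

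The log2 fold changes themselves were mostly positive, 34 of 37 or 91.9%, where 48.8% of all tested genes were above 0. Their median was 0.73, against -0.0096 for all tested genes, and they ranged from -0.56 to 1.47. The size of these values depended on single caBmpr1a libraries. Without caBmpr1a replicate 1 all 37 log2 fold changes were smaller, 24 were above 0 and 13 below, and their median was 0.15. That library was set aside because it held most of the highest values, so smaller values without it follow from the choice. Without caBmpr1a replicate 3, which held the most lowest values, the median was 1.01, with 36 above 0 and 1 below. The values of the 2 groups did not overlap for 3 genes with caBmpr1a higher (8.11%, against 7% of all tested genes) and for 0 genes with caBmpr1a lower (against 10.1%).

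**Figure D4:**
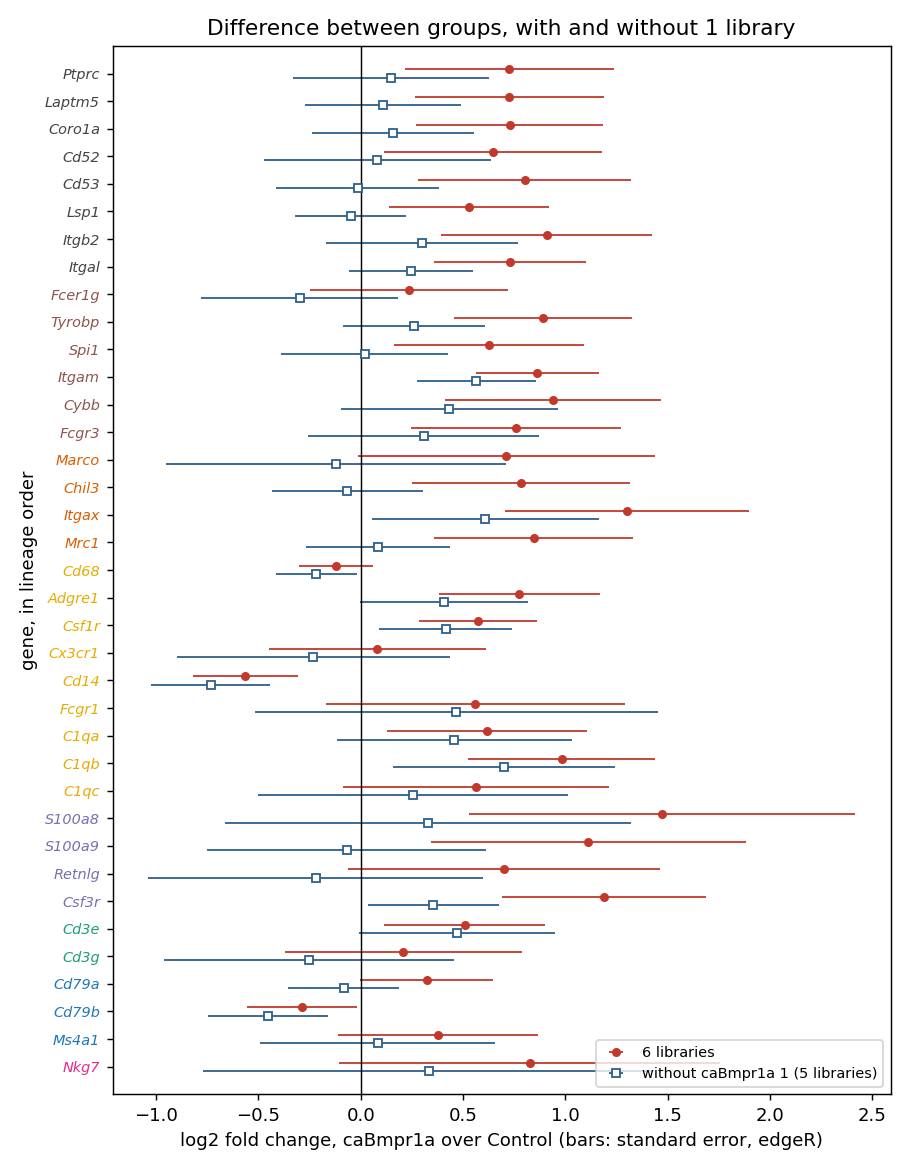
Log2 fold change of caBmpr1a over Control with its standard error from edgeR for each of the 37 tested leukocyte genes, in all 6 libraries (filled circles) and without caBmpr1a replicate 1 (open squares). The median moves from 0.73 to 0.15, and the number above 0 from 34 to 24.

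Within the 4 Y-negative libraries, 2 Control and 2 caBmpr1a, the picture was different in size. This set keeps caBmpr1a replicate 1 and leaves out caBmpr1a replicate 3, which held the most lowest values. Larger differences therefore follow in part from which libraries remain. Most of the leukocyte genes were highest in caBmpr1a replicate 1, so the genes counted here are not independent results. Both caBmpr1a values were above both Control values for 24 of the 37 genes, or 64.9%, against 19.5% of all tested genes. The median log2 fold change there was 1.01, with 36 of 37 above 0, and 21 genes (56.8%, against 6.26% of all tested genes) had an unadjusted p under 0.05 with caBmpr1a higher in edgeR's test. With caBmpr1a lower it was 1 gene (2.7%, against 7.28%). None passed both thresholds, which 0.343% of all tested genes did, and the lowest adjusted p was 0.0312, for *Csf1r*, whose log2 fold change of 0.82 was under the 2-fold limit. In the Y-positive pair, 1 library of each group, caBmpr1a was the higher for 15 of 37 genes (40.5%, against 50.3% of all tested genes). That pair cannot be tested.

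Many of these genes are known targets of the transcription factor PU.1, encoded by *Spi1*, which is itself a member of the list and binds sites with a purine-rich core. As background, their promoters were searched for the letters GAGGAA on both strands, where the shorter core GGAA is part of the longer motif. RefSeq promoters on the GRCm38.p6 build, from 250 bases before to 50 after the start, were matched for 26 of the 38 genes. GAGGAA was found for 16 of the 26 (61.5%), against 31.3% of the 27025 genes with a promoter. GGAA was found for 100% of the 26 and for 96.5% of all, so that the short core does not separate them. The 250 bases before the start are shown for *Mrc1* (chr2:14229164-14229413, plus strand), *Itgam* (chr7:128062390-128062639, plus strand) and *Cd68* (chr11:69666171-69666420, minus strand), which had the most matches. *Cd68* had as many as *Cd53* and *S100a8* and was taken for its higher mean CPM. The capitals mark GAGGAA or its reverse complement TTCCTC, and a match describes the letters and not a bound site.
Mrc1: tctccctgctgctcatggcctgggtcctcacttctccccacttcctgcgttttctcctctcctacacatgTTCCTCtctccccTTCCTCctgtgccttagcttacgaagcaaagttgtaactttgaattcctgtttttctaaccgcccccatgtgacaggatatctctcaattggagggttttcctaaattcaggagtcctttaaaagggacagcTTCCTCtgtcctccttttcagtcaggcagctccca
Itgam: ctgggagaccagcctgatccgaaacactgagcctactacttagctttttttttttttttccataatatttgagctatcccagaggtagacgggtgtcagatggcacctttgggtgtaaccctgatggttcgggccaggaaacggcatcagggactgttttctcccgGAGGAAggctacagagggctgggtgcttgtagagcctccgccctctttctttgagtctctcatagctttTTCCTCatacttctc
Cd68: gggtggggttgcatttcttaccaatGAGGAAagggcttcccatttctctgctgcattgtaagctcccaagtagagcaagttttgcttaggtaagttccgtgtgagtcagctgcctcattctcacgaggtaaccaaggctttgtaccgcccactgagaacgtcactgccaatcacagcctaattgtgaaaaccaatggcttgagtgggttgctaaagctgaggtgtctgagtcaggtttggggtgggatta
The *Mrc1* window holds 3 matches, the *Itgam* window 2 and the *Cd68* window 1. *Itgam* and *Cd68* have a further match each in the 50 bases after the start. *Mrc1* and *Itgam* were highest in caBmpr1a replicate 1, as were *Cd53* and *S100a8*, and *Cd68* was highest in Control replicate 1. A link between the motif and the order of the libraries was not tested.

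The 8 pan-leukocyte genes together had 45.9, 61.1 and 76.7 CPM in Control replicates 1, 2 and 3 and 174, 89.6 and 43.2 CPM in caBmpr1a replicates 1, 2 and 3. caBmpr1a replicate 1 was the highest library for 8 of the 8, and caBmpr1a replicate 3 the lowest for the sum. The ratio of the group means was 1.67, and 1.08 without caBmpr1a replicate 1. Within the 4 Y-negative libraries it was 1.91, and in the Y-positive pair 0.940. All 8 log2 fold changes were above 0 with a median of 0.73, and 0 of 8 had an unadjusted p under 0.05 in edgeR's test.

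*Ptprc* (chr1:138062859-138175305 on mm10, minus strand), the gene of CD45 and the usual marker of leukocytes in sorting, had 6.14, 11.7 and 16.3 CPM in the Control libraries and 32.0, 17.5 and 7.36 CPM in the caBmpr1a libraries. Its values overlapped between the groups, with caBmpr1a replicate 3 below 2 of the Control libraries. The log2 fold change was 0.73 (standard error, SE, 0.51, edgeR adjusted p = 0.674). *Laptm5*, a negative regulator of antigen receptor levels, was at 9.77, 11.4 and 16.0 CPM in Control and 35.5, 18.3 and 7.94 CPM in caBmpr1a libraries. *Coro1a*, an actin-binding protein of leukocytes, was at 6.32, 9.90 and 10.01 CPM in Control and 24.5, 13.4 and 5.73 CPM in caBmpr1a libraries. *Laptm5* and *Coro1a* thus followed the order of *Ptprc* at the top, with caBmpr1a replicates 1 and 2 the highest, and each was lowest in caBmpr1a replicate 3.

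*Cd52*, a small GPI-anchored antigen of lymphocytes and myeloid cells, was lower in CPM, with 1.39, 1.89 and 1.60 in Control and 4.31, 2.33 and 1.04 in caBmpr1a libraries. *Itgb2*, the beta chain of the leukocyte integrins, had 5.38, 8.02 and 9.33 CPM in Control and 24.6, 13.8 and 4.52 CPM in caBmpr1a libraries. Neither gene separated the groups. *Cd53*, *Lsp1*, an actin-binding phosphoprotein, and *Itgal*, the alpha chain of the integrin LFA-1, had log2 fold changes of 0.80, 0.53 and 0.73 (edgeR adjusted p = 0.654, 0.688 and 0.576, respectively). Without caBmpr1a replicate 1, the log2 fold changes of *Cd53* and *Lsp1* were -0.015 and -0.048, and that of *Itgal* was 0.25.

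**Figure D5:**
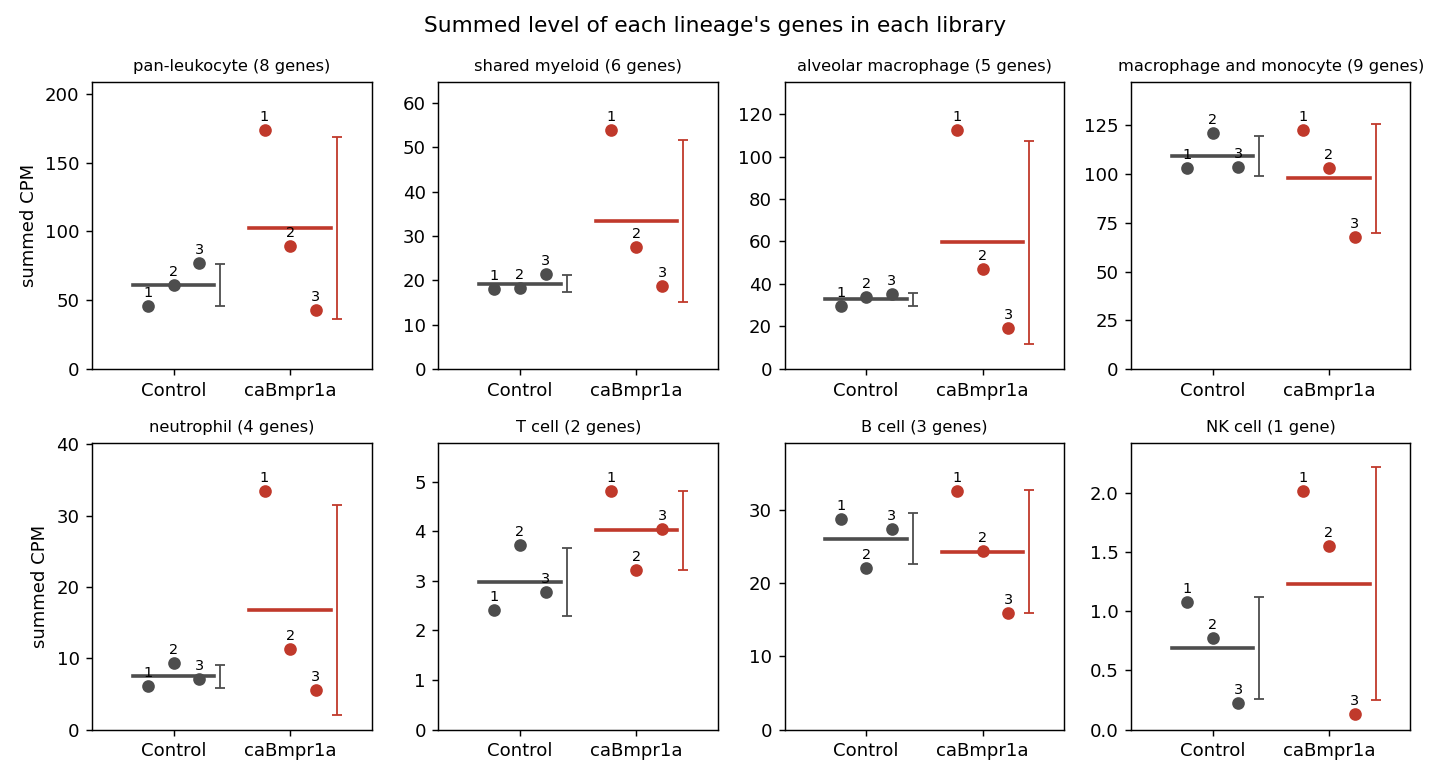
Summed CPM of the leukocyte genes of each of the 8 lineages in each library, labelled by replicate number, with the group mean (thick line) and SD (error bar, n = 3). caBmpr1a replicate 1 is the highest library in every panel, and caBmpr1a replicate 3 lies below the 3 Control libraries in 6 of the 8, for instance at 43.2 CPM in the pan-leukocyte and 19.2 CPM in the alveolar macrophage panel.

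The shared myeloid genes, 6 in number, summed to 17.9, 18.3 and 21.4 CPM in Control and 53.9, 27.5 and 18.7 CPM in caBmpr1a libraries. The Control libraries were close to each other, at 19.2 ± 1.91 CPM (SD, n = 3), and the caBmpr1a libraries were not, at 33.4 ± 18.3 CPM (SD, n = 3). The ratio of means was 1.73, and 1.202 without caBmpr1a replicate 1. All 6 log2 fold changes were above 0, with a median of 0.81.

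*Tyrobp* encodes DAP12, the adaptor through which many myeloid and NK receptors signal. It had 3.05, 3.13 and 3.12 CPM in Control and 10.04, 4.23 and 3.06 CPM in caBmpr1a libraries. The 3 Control values were nearly equal, caBmpr1a replicate 1 was far above them and caBmpr1a replicate 3 fell among them, which gave a log2 fold change of 0.89 (SE 0.44, edgeR adjusted p = 0.560). *Fcer1g*, the common gamma chain of Fc receptors, had 2.73, 1.46 and 2.28 CPM in Control and 4.22, 1.55 and 1.89 CPM in caBmpr1a libraries. It overlapped between the groups, and its log2 fold change changed sign from 0.24 to -0.30 without caBmpr1a replicate 1.

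*Itgam* (chr7:128062640-128118491 on mm10, plus strand), the gene of the integrin chain CD11b of neutrophils, monocytes and macrophages, was the tested leukocyte gene with the lowest p. Its CPM was 3.90, 3.60 and 3.46 in Control and 9.35, 4.54 and 6.09 in caBmpr1a libraries. Every caBmpr1a value was above every Control value, as for *Adgre1* and *C1qb* below. The log2 fold change was 0.86 (SE 0.30, edgeR adjusted p = 0.418), past 0.05 only before adjustment. *Cybb*, a subunit of the phagocyte NADPH oxidase, *Spi1* and *Fcgr3*, an Fc receptor, had log2 fold changes of 0.94, 0.63 and 0.76 (edgeR adjusted p = 0.611, 0.690 and 0.666, respectively). All 3 were highest in caBmpr1a replicate 1, and *Cybb*, at 18.1 CPM there and 3.32 CPM in Control replicate 1, covered the widest range of the 6.

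Of the alveolar macrophage genes, 5 in number, 4 were tested. The sum over the 5 was 29.4, 33.7 and 35.2 CPM in Control and 112, 47.2 and 19.2 CPM in caBmpr1a libraries. The caBmpr1a libraries lay on both sides of the Control libraries. The ratio of means was 1.82 in all libraries, 1.01 without caBmpr1a replicate 1, 2.32 within the 4 Y-negative libraries and 0.653 in the Y-positive pair.

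*Chil3* (chr3:106147554-106167564 on mm10, minus strand) made up most of that sum. It had 21.9, 24.3 and 23.6 CPM in Control and 77.0, 31.5 and 12.0 CPM in caBmpr1a libraries. The Control values spanned a narrow range, 23.3 ± 1.27 CPM (SD, n = 3), with 2 caBmpr1a libraries above it and 1 below. The log2 fold change was 0.78 (SE 0.53, edgeR adjusted p = 0.668), and -0.066 without caBmpr1a replicate 1. Its close paralog *Chil4* had from 0 to 11 counts in a library, and reads that fit both genes could be lost or split in counting.

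*Mrc1*, the mannose receptor of alveolar and interstitial macrophages, had 3.77, 5.36 and 6.21 CPM in Control and 17.1, 6.56 and 4.10 CPM in caBmpr1a libraries. *Itgax*, the gene of the integrin chain CD11c of alveolar macrophages and dendritic cells, had 3.09, 3.09 and 4.91 CPM in Control and 16.5, 8.73 and 2.31 CPM in caBmpr1a libraries. *Mrc1* overlapped between the groups, as did *Itgax*, whose log2 fold change of 1.30 (edgeR adjusted p = 0.532) was the second largest of the list. *Marco*, a scavenger receptor of alveolar macrophages, was near the detection limit, with 0.628, 0.686 and 0.343 CPM in Control and 1.74, 0.310 and 0.683 CPM in caBmpr1a libraries. It was both highest and lowest in caBmpr1a libraries, in replicates 1 and 2. *Ear2*, an eosinophil-associated ribonuclease gene, had 1, 5 and 4 counts in Control and 4, 4 and 4 counts in caBmpr1a libraries and did not pass the filter. Of its exon bases, 65.8% are shared with *Ear3* and *Ear12* in the table, and the counting skipped reads that fell on more than 1 gene, so its level is uncertain.

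The 9 macrophage and monocyte genes differed from the groups above. They summed to 103, 121 and 104 CPM in Control and 123, 103 and 67.5 CPM in caBmpr1a libraries, a ratio of means of 0.894. Within the 4 Y-negative libraries the ratio was 1.00. The sum was dominated by *Cd14*, *Cd68* and *Csf1r*, the genes of the group with the highest CPM, while 7 of the 9 log2 fold changes were above 0 with a median of 0.56. The sum and the single genes therefore gave different directions.

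*Cd14* had 54.1, 80.8 and 61.9 CPM in Control and 56.0, 49.3 and 27.99 CPM in caBmpr1a libraries. It was the leukocyte gene with the lowest log2 fold change, -0.56 (SE 0.26, edgeR adjusted p = 0.532), and its values overlapped only through caBmpr1a replicate 1, which was above Control replicate 1. *Cd68* had 27.1, 18.9 and 20.2 CPM in Control and 23.8, 19.7 and 17.4 CPM in caBmpr1a libraries. The group means of *Cd68* differed by less than the spread within a group, with a log2 fold change of -0.12 that became 0.0020 with scaling by library size only. With a coefficient of variation of 17.0% over the 6 libraries, *Cd68* was the steadiest of the 38 genes.

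*Csf1r* had 13.3, 16.3 and 15.7 CPM in Control and 28.1, 27.1 and 12.3 CPM in caBmpr1a libraries. Here caBmpr1a replicates 1 and 2 were nearly equal and caBmpr1a replicate 3 was below all Control libraries. The log2 fold change was 0.57 (SE 0.29, edgeR adjusted p = 0.575). *Adgre1*, the gene of the macrophage antigen F4/80, had 2.24, 1.93 and 1.71 CPM in Control and 4.997, 2.37 and 2.73 CPM in caBmpr1a libraries. The groups did not overlap, and the log2 fold change was 0.78 (SE 0.39, edgeR adjusted p = 0.576).

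The 3 chains of complement C1q, made by tissue macrophages, are encoded by neighbouring genes on chromosome 4, *C1qa* at chr4:136895916-136898844, *C1qc* at chr4:136889802-136892914 and *C1qb* at chr4:136880145-136886177 on mm10. *C1qa* had 1.97, 1.07 and 0.990 CPM in Control and 2.57, 1.24 and 2.38 CPM in caBmpr1a libraries. *C1qb* had 1.12, 1.07 and 0.800 CPM in Control and 2.75, 1.55 and 1.63 CPM in caBmpr1a libraries, without overlap. *C1qc* had 1.93, 0.343 and 1.26 CPM in Control and 2.48, 1.09 and 1.66 CPM in caBmpr1a libraries. For all 3 genes caBmpr1a replicate 1 was the highest, and caBmpr1a replicate 3 was above caBmpr1a replicate 2, an order not seen for *Ptprc*. Their log2 fold changes were 0.62, 0.98 and 0.56 (edgeR adjusted p = 0.710, 0.541 and 0.813, respectively).

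*Cx3cr1* had 0.942, 0.686 and 1.10 CPM in Control and 1.38, 0.582 and 0.944 CPM in caBmpr1a libraries, with a log2 fold change of 0.081 that was the closest to 0 of the list. *Fcgr1* stayed under 1 CPM in every library, with counts from 4 to 14. Its log2 fold change was 0.56 with an SE of 0.73, and the values of both genes overlapped between the groups.

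The neutrophil genes, 4 in number, stood out most in caBmpr1a replicate 1, while other neutrophil genes, given below, were mixed. They summed to 6.10, 9.30 and 7.04 CPM in Control and 33.5, 11.2 and 5.53 CPM in caBmpr1a libraries. caBmpr1a replicate 1 was 4.27 times the mean of the other 5 libraries, the largest such ratio of the 8 lineages. The ratio of group means was 2.24, and 1.12 without caBmpr1a replicate 1. In the 4 Y-negative libraries it was 2.74, and in the Y-positive pair 0.907.

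*S100a8* and *S100a9* encode the subunits of calprotectin, an abundant cytosolic protein of neutrophils, and lie near each other at chr3:90669071-90670034 and chr3:90692630-90695721 on mm10. *S100a8* had 0.314, 1.03 and 0.685 CPM in Control and 4.03, 1.47 and 0.195 CPM in caBmpr1a libraries. *S100a9* had 0.986, 3.00 and 2.06 CPM in Control and 9.40, 2.83 and 0.944 CPM in caBmpr1a libraries. The pair ran in nearly the same order over the libraries, highest in caBmpr1a replicate 1 and lowest in caBmpr1a replicate 3, next to Control replicate 1. *S100a8* had the largest log2 fold change of the list, 1.47 (SE 0.94, edgeR adjusted p = 0.648), but 0.33 without caBmpr1a replicate 1, where *C1qb* had the largest, 0.70. For *S100a9* it was 1.11, and -0.069 without caBmpr1a replicate 1.

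*Csf3r* (chr4:126024659-126044975 on mm10, plus strand), the receptor for granulocyte colony-stimulating factor, had 3.99, 4.59 and 3.39 CPM in Control and 17.4, 5.86 and 4.13 CPM in caBmpr1a libraries. Its log2 fold change was 1.19 (SE 0.50, edgeR adjusted p = 0.499), past 0.05 only before adjustment, and it was 0.35 without caBmpr1a replicate 1. *Retnlg*, a resistin-like gene of mature neutrophils, had 0.807, 0.686 and 0.914 CPM in Control and 2.61, 1.09 and 0.260 CPM in caBmpr1a libraries. For *Csf3r* caBmpr1a replicate 3 lay among the Control libraries, and for *Retnlg* it lay below them.

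The T cell genes *Cd3e* and *Cd3g*, signalling chains of the T cell receptor complex, summed to 2.42, 3.73 and 2.78 CPM in Control and 4.81, 3.22 and 4.04 CPM in caBmpr1a libraries. *Cd3e* had 1.52, 3.13 and 1.83 CPM in Control and 3.30, 2.37 and 3.55 CPM in caBmpr1a libraries, and was the only tested member highest in caBmpr1a replicate 3. *Cd3g* stayed between 0.488 and 1.51 CPM. Both overlapped between the groups, with log2 fold changes of 0.51 and 0.21 (edgeR adjusted p = 0.705 and 0.924, respectively).

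The B cell genes summed to 28.8, 22.2 and 27.4 CPM in Control and 32.6, 24.5 and 15.9 CPM in caBmpr1a libraries, a ratio of means of 0.932. Most of this sum was *Cd79b*, with 23.0, 15.8 and 20.3 CPM in Control and 20.5, 18.2 and 9.86 CPM in caBmpr1a libraries. *Cd79b* did not follow its partner. *Cd79a* had 4.84, 4.50 and 5.22 CPM in Control and 9.26, 4.19 and 4.82 CPM in caBmpr1a libraries, so that caBmpr1a replicate 1 was 1.96 times the mean of the other 5 libraries for *Cd79a* and 1.18 times for *Cd79b*. *Ms4a1* had 0.942, 1.89 and 1.90 CPM in Control and 2.89, 2.06 and 1.24 CPM in caBmpr1a libraries. The groups overlapped for all 3 genes, whose log2 fold changes were 0.32, -0.29 and 0.38 for *Cd79a*, *Cd79b* and *Ms4a1*.

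*Nkg7*, a granule membrane gene of NK cells and cytotoxic T cells, was the single NK cell gene. It had 1.08, 0.772 and 0.228 CPM in Control and 2.02, 1.55 and 0.130 CPM in caBmpr1a libraries. Counts ran from 4 in caBmpr1a replicate 3 to 44 in caBmpr1a replicate 1, and the log2 fold change was 0.83 (SE 0.93, edgeR adjusted p = 0.805).

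Co-variation was computed between 6 genes, *Ptprc*, *C1qa*, *Marco*, *S100a8*, *Cd3e* and *Cd79a*, taken to stand for leukocytes as a whole, macrophages, alveolar macrophages, neutrophils, T cells and B cells. Pearson's r of log2(CPM + 0.5) over the 6 libraries was above 0 for 14 of the 15 pairs, with a median of 0.53. With exact permutation tests, two-sided and adjusted over the 15 pairs, 0 pairs passed 0.05 and 1 pair had an unadjusted p under 0.05. That pair was *Ptprc* and *S100a8*, with r = 0.930 (exact permutation p = 0.0167, adjusted p = 0.250) and Spearman's rho = 0.886 (exact permutation p = 0.0333, adjusted p = 0.5). Without Control replicate 1 and caBmpr1a replicate 1, the libraries farthest from the median of *Ptprc*, r was 0.825.

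For 8 of the 15 pairs r changed sign when the 2 libraries farthest from the median were left out. *Ptprc* and *C1qa* had r = -0.056 and a rho of 0.0857 (exact permutation p = 0.95 and 0.919, adjusted p = 0.95 and 0.985). *Marco* and *Cd79a* had r = 0.869 (exact permutation p = 0.144, adjusted p = 0.557) and a rho of 0.429 (exact permutation p = 0.419, adjusted p = 0.985), and r was -0.872 without caBmpr1a replicates 1 and 2. On untransformed CPM, 15 of the 15 pairs had r above 0, 0 passed the adjustment and 9 changed sign.

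Other leukocyte genes, 92 that are not on the list above, were followed in the same way. Of these, 86 were matched in the table and 73 were tested. In edgeR's test 0 of the 73 were called, and 3 had an unadjusted p under 0.05. These were the monocyte gene *Ly6c2* and the alveolar macrophage gene *Krt79* with caBmpr1a higher (2.74% of the 73, against 4.62% of all tested genes) and the lysozyme gene *Lyz1* with caBmpr1a lower (1.37%, against 5.05%). *Ly6c2* and *Krt79* are named after their values were seen. *Ly6c2* had 35.9, 27.3 and 23.3 CPM in Control and 44.8, 44.0 and 61.0 CPM in caBmpr1a libraries. It was thus highest in caBmpr1a replicate 3, the library that was lowest for 18 of the members, and did not follow their order. *Ly6c2* had a log2 fold change of 0.79 (edgeR adjusted p = 0.232), under the 2-fold limit, and in other fits its adjusted p was lower, 0.0109 with DESeq2, 0.0266 with edgeR in the 4 Y-negative libraries and 0.0066 with Y-linked reads as a covariate in edgeR. The median log2 fold change of the 73 was 0.58, with 62 above 0, and caBmpr1a replicate 1 was the highest library for 46 of them. That is 63% of the 73, against 8.66% of all tested genes.

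The gene with the highest mean CPM in each of these other lists often did not follow that library. *Lyz1* had 2092, 1920.1 and 2626 CPM in Control and 1243, 1139.7 and 255 CPM in caBmpr1a libraries. Its close paralog *Lyz2*, which AT2 cells express, had from 27309 to 30830 CPM in Control and from 8292 to 18143 CPM in caBmpr1a libraries, so the counts of *Lyz1* are uncertain. *Hdc*, the histidine decarboxylase gene listed with neutrophils, had 371, 514 and 589 CPM in Control and 439, 324 and 131 CPM in caBmpr1a libraries. It made up most of the sum of its list, whose ratio of group means was 0.641. In that list 5 genes were highest in caBmpr1a replicate 1, *Cxcr2*, *Mmp9*, *Ngp*, *Il1b* and *Trem1*. *Mpo* and *Elane* were highest in caBmpr1a replicate 3, *Mmp8* in Control replicate 1 and *Camp* in Control replicate 2. *Lyz1* and *Hdc* were lowest in caBmpr1a replicate 3, as were *Cd14* and *Cd79b* above, and in every library their CPM was above that of each of the 38 genes.

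*Cytip*, a pan-leukocyte scaffold gene, had 74.0, 65.8 and 69.7 CPM in Control and 67.3, 55.0 and 56.1 CPM in caBmpr1a libraries. *Gata2*, a transcription factor gene of mast cells and basophils that other tissues also use, had 21.4, 22.4 and 14.6 CPM in Control and 19.3, 31.7 and 34.4 CPM in caBmpr1a libraries. Neither was highest in caBmpr1a replicate 1. *Jchain*, the joining chain gene of plasma cells, did follow that library, with 10.2, 4.80 and 5.10 CPM in Control and 37.6, 9.78 and 2.31 CPM in caBmpr1a libraries.

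The T cell transcription factor gene *Tcf7* had 6.77, 9.94 and 8.83 CPM in Control and 12.7, 8.11 and 8.17 CPM in caBmpr1a libraries. *Gzma*, a granzyme gene of NK cells, had 1.26, 0.772 and 1.07 CPM in Control and 2.80, 1.47 and 1.17 CPM in caBmpr1a libraries. *Tcf7* and *Gzma* were highest in caBmpr1a replicate 1. *Zbtb46*, a transcription factor gene of classical dendritic cells, had 3.41, 5.70 and 6.02 CPM in Control and 4.08, 4.15 and 4.69 CPM in caBmpr1a libraries and was highest in Control replicate 3.

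Genes of the other cell types did not have their highest sum in caBmpr1a replicate 1. The 10 endothelial genes summed to 289, 599 and 414 CPM in Control and 532, 867 and 610 CPM in caBmpr1a libraries. The group means had a ratio of 1.54, and 10 of 10 log2 fold changes were above 0, against 48.8% of all tested genes. In edgeR's test 7 had an unadjusted p under 0.05 with caBmpr1a higher, against 4.62% of all tested genes. The 10 mesenchymal genes summed to 188, 237 and 214 CPM in Control and 278, 336 and 304 CPM in caBmpr1a libraries, without overlap and with a ratio of 1.44. Of these 10, 3 had an unadjusted p under 0.05 in edgeR's test with caBmpr1a higher. These lists thus lay in the same direction as most leukocyte genes. The 10 AT2 genes had a ratio of 0.829 in CPM. Of them, 5 had an unadjusted p under 0.05 in edgeR's test with caBmpr1a lower, against 5.05% of all tested genes. In TPM their sums overlapped between the groups, at 217266, 198418 and 191573 in Control and 198066, 196518 and 199609 in caBmpr1a libraries. The 8 airway genes, between 722 and 1219 CPM, were highest in caBmpr1a replicate 3, with a ratio of 1.32. Most of that difference lay in *Tppp3*, the 1 called gene of the list, with means of 96.5 CPM in Control and 348 CPM in caBmpr1a libraries. Its log2 fold change was 1.85 (edgeR adjusted p = 0.0165), while those of *Scgb1a1*, *Scgb3a2* and *Cyp2f2* were 0.17, -0.058 and -0.53. The airway ratio is therefore not a measure of airway cells. Relative to the mean of the other 5 libraries, caBmpr1a replicate 1 was at 0.957 for the endothelial, 1.08 for the mesenchymal and 0.864 for the airway genes. For the 38 leukocyte genes this ratio was 2.12. Among the lists of other leukocyte genes it was 0.810 for mast cell, basophil and eosinophil and 0.827 for macrophage and monocyte genes. It was 1.04 for dendritic cell, 1.22 for neutrophil, 1.44 for pan-leukocyte, 1.49 for T cell, 1.99 for NK cell and 3.43 for B cell genes. Not all leukocyte lists thus stood out in that library. Erythroid and platelet genes summed to between 0.457 and 7.97 CPM. The part of these cell types in the leukocyte differences was not tested. The age of 16 weeks goes with caBmpr1a replicate 1 and Control replicate 2. With age as a covariate, the median log2 fold change of the 37 genes was 0.58, against 0.73 without it, with 34 of 37 above 0 in each fit.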

How the data were processed

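RNA from FACS-sorted, lineage-labelled AT2 cells of 3 Control and 3 caBmpr1a mice was sequenced as paired poly(A) libraries. The authors deposited raw counts for 24421 genes, obtained after trimming by alignment with HISAT2 to the mm10 build, removal of duplicates (SAMtools) and featureCounts 1.5.3, ignoring strand and skipping reads on more than 1 gene. From 56.9% to 60.8% of counts between 1 and 20 were even, so mates appear to have been counted singly. All 6 sample columns were used, and 0 were left unused. Groups came from the sample titles.

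edgeR 4.0.16 (R 4.3.3) was run on the counts with TMM scaling, its default filter (minimum count 10), the quasi-likelihood test and adjustment by Benjamini-Hochberg over 16723 genes. This test gives each edgeR p and adjusted p. A gene was called at an adjusted p under 0.05 and an absolute log2 fold change over 1. The scripts were tested on simulated data. TPM used the gene lengths of the table. Correlations and exact permutation tests used scipy 1.17.1. Promoters are RefSeq windows.

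No pair of libraries within a group agreed within sampling noise, and all 6 were kept. The members and lists were chosen with earlier results of these data known. Values in every library were set for 24 of the 38 members and, in each other list, for the gene with the highest mean CPM. Those of *Itgb2*, *Itgam*, *Itgax*, *C1qb*, *C1qc*, *Cd79b* and the other leukocyte gene *Ly6c2* were added after their values were seen. Alternatives were other scalings, filters and tests (DESeq2 1.42.0, limma 3.58.1), age or the replicate number as a term, halved counts, each library left out, and the 4 Y-negative libraries alone. A covariate for Y-linked reads and the Y-positive pair were chosen after seeing the data.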

Additional observations from a re-analysis of the deposited data

How the results depend on the processing

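No member or other leukocyte gene was called under any of the 18 alternative fits. The lowest adjusted p of the members was 0.0312 in the 4 Y-negative libraries (*Csf1r*, under 2-fold), 0.0649 with Y-linked reads as a covariate, a term chosen after seeing the data (*Cd14*), and 0.183 with DESeq2. At an unadjusted p under 0.05, 2 members were higher in the edgeR fit of all libraries (4.62% of all genes), 20 without caBmpr1a replicate 3 (4.60%), 21 in the 4 libraries (6.26%), 9 with the covariate (7.97%) and 0 without caBmpr1a replicate 1 (4.66%). The larger counts came from sets without caBmpr1a replicate 3, the library with the most lowest values, and follow in part from that choice. Of 413 values for the 23 named members under alternatives, 400 kept their sign. With 1 library left out, the log2 fold change ranged from -0.30 to 0.52 for *Fcer1g*, from -0.23 to 0.36 for *Cx3cr1*, from -0.12 to 1.15 for *Marco*, from -0.066 to 1.25 for *Chil3*, from -0.069 to 1.62 for *S100a9*, from -0.22 to 1.23 for *Retnlg* and from -0.083 to 0.55 for *Cd79a*, each lowest without caBmpr1a replicate 1. For *Cx3cr1* it was -0.0048 with limma-voom. For *Cd68* it was 0.0020 with library size only, from -0.22 to 0.049 with 1 library left out and 0.19 in the 4 Y-negative libraries. The number of all genes called was 62 without the filter, 144 with DESeq2, 26 with limma-voom, 142 with that covariate, and from 6 to 63 with 1 library left out. The ratio of group means in the Y-positive pair was 1.67 for T cell, 0.552 for B cell and 0.121 for NK cell genes, and in the 4 libraries 3.57 for *Nkg7*. The shorter motif was in 100% of the promoters matched. The cause of these changes was not tested.

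The replicate number did not pair the libraries, which come from different mice, since the correlations of their deviations were -0.24, 0.20 and -0.53. A block for the replicate number gave 0 leukocyte genes called and 41 of all genes. Depth limits the lowest members, *Ear2* and *Fcgr1*, which were under 1 CPM in every library.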
